A study of Mus musculus with 10 samples.

Results

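The complement and coagulation genes of the liver were examined as a group of 62 genes. They were taken by their annotation to the complement and coagulation cascades in the KEGG column of the deposited table and by a mean level of at least 0.5 FPKM over the 10 libraries. FPKM scales fragment counts to transcript length and library size, so levels can be compared between genes. Of 55401 genes in the table, 88 carried the annotation. Of these 88, 21 were below the minimum level, and the 5 near-identical copies Serpina1a to Serpina1e were left out.

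Complement is a set of plasma proteins that tag and lyse microbes and damaged cells. It is started by recognition molecules or by slow spontaneous activation, converges on C3, and ends in a pore built from C5b to C9. Coagulation is a chain of proteases that ends with thrombin cutting fibrinogen into fibrin, held in check by antithrombin and protein C and undone by plasmin. The hepatocyte secretes most of these proteins, while von Willebrand factor, thrombomodulin and factor VIII come mainly from endothelium, and C1q and the complement receptors from macrophages and other leukocytes.

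The 10 libraries came from mouse liver, 5 labelled NIKflox, the floxed controls, and 5 labelled NIKhKO. The series title ties NIKhKO to loss of hepatic NIK (NF-kB inducing kinase, encoded by Map3k14). Libraries are also called livers below, but the labels do not show that each came from a separate mouse. All 10 libraries were from mice that had received 5% ethanol in the Lieber-DeCarli liquid diet over 4 weeks. The comparison is therefore between genotypes under ethanol and holds no animals without it. The sources used here do not give the driver of the deletion, the deleted part of the gene or the age of the mice. Each library is labelled as its own sample, with no word on litters or cages, and a p-value therefore measures the spread between these samples only, which may be technical. The targeted gene, Map3k14, averaged 0.606 ± 0.168 FPKM in the controls against 0.383 ± 0.0372 FPKM in NIKhKO (SD, n = 5 each), or 63.1% of the NIKflox mean, with separate ranges of 0.483 to 0.899 and 0.347 to 0.443 FPKM. Its log2 fold change was −0.59 (SE 0.19, edgeR adjusted p = 0.33). The 8 hepatocyte markers, Alb and Ttr among them, summed to 38770 to 51450 FPKM in NIKflox and 40930 to 49020 FPKM in NIKhKO. Total estimated counts ran from 47161869 to 65052525 per library. Heart muscle markers summed to 6.53 and 27.8 FPKM in NIKflox 2 and NIKflox 4 and to at most 0.958 FPKM in each of the other libraries, so values without those 2 libraries are given beside several results. Stellate cell markers summed to 61.2 to 105 FPKM in NIKflox and 58.6 to 76.1 FPKM in NIKhKO, with 8 of 8 log2 fold changes negative, and cholangiocyte markers to 26.1 to 46.2 and 15.8 to 26.9 FPKM, with 4 of 4 negative. Monocyte and neutrophil markers summed to at most 8.89 FPKM and platelet markers to at most 3.32 FPKM, and none of all these markers was called.

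With p-values adjusted over all 12731 genes tested, edgeR's quasi-likelihood test called 0 of the 62 genes at the threshold of 0.05. It called 3 of all genes (0.0236%), 2 higher (0.0157%) and 1 lower (0.00785%) in NIKhKO. The lowest adjusted p among the 62 was 0.26, for Vwf, which passed the minimum level only through NIKflox (mean 0.668 FPKM, against 0.353 FPKM in NIKhKO), as Cfd did, so its choice favoured a lower level in NIKhKO. At an unadjusted p below 0.05 there were 8 of the 62, where 1273 of all genes tested were. Vwf, C3, C8b, Thbd and F11 were lower in NIKhKO, 5 of 62 where 5.14% of all genes were lower, and Serpinc1, Clu and Cd59a were higher, 3 of 62 where 4.85% were higher. DESeq2 called 1 of the 62, the same Vwf (adjusted p = 0.036), and 1.63% of all genes. Log2 fold changes, NIKhKO minus NIKflox, were positive for 31 members and negative for 31, with a median of 0.003 beside −0.01 over all genes tested. They rest on counts scaled by TMM factors, which were not applied to the FPKM values. By mean FPKM, most members were lower in NIKhKO. In limma on log2(FPKM + 1) the median was −0.05 for members and −0.05 over all genes tested. A small fold change can therefore differ in sign from the FPKM means, as for Cfb (365 and 352 FPKM, log2 fold change 0.01). For 43 of the 62 the 95% interval of the log2 fold change lay within −0.5 to 0.5, and 45 had a log2 fold change under 0.2 in size. Without NIKflox 2 and NIKflox 4, 7 members had an unadjusted p below 0.05, where 1048 of all genes tested had. Among the 7 were Vwf, C3, C8b, F11, Serpinc1 and Clu.

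**Figure D1:**
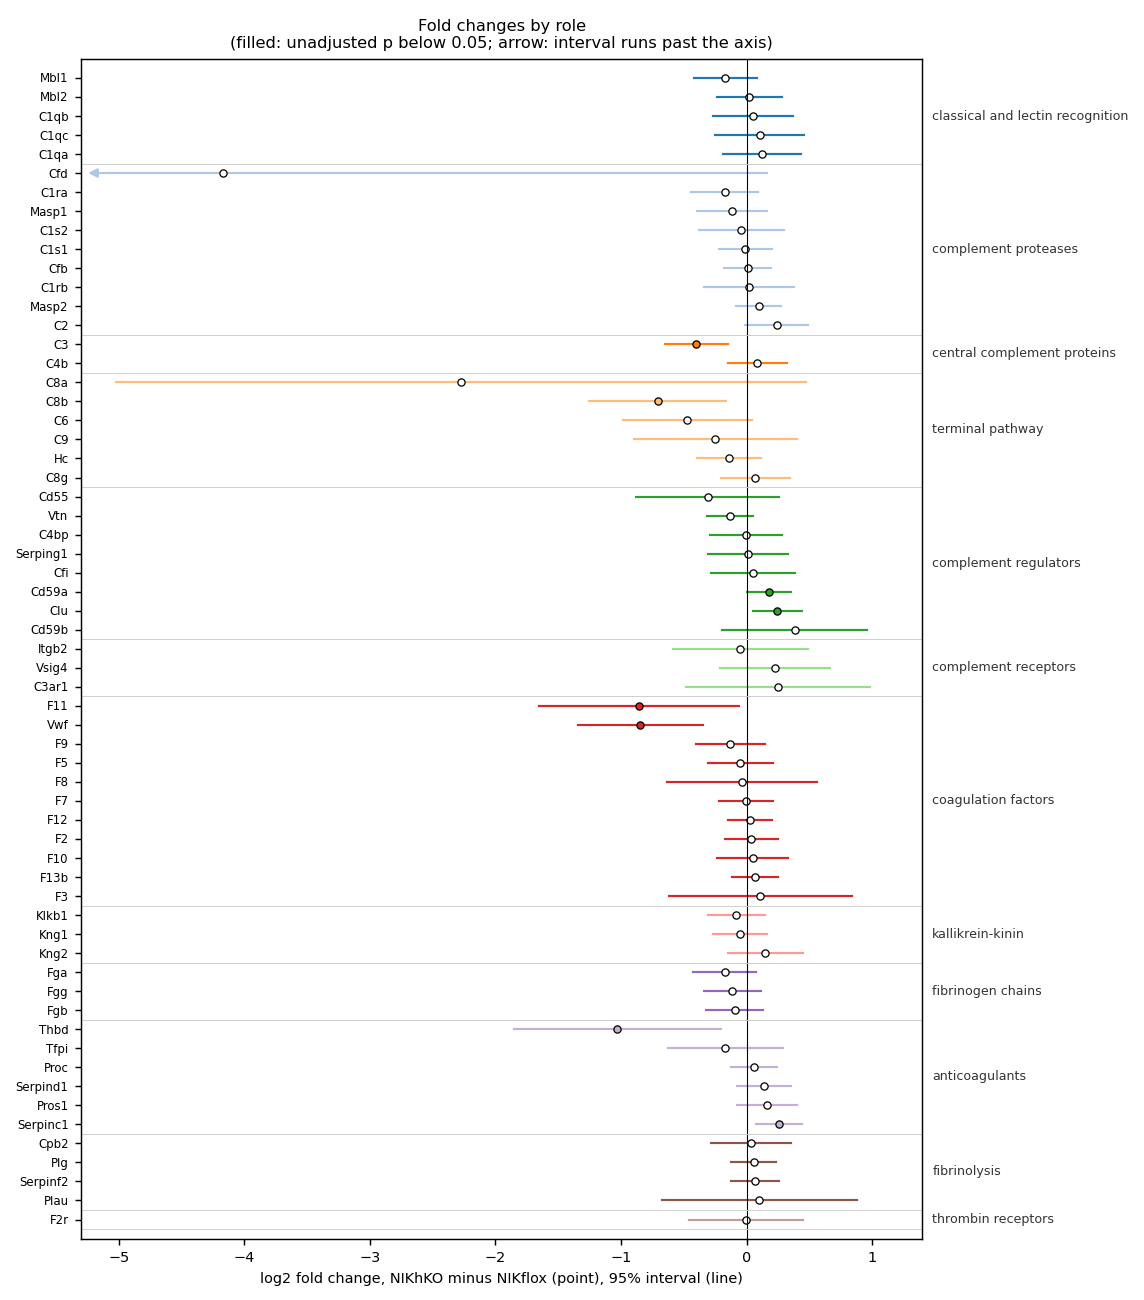
Log2 fold change of 61 of the 62 genes (horizontal axis, NIKhKO minus NIKflox, point) with its 95% interval (line), grouped by role, filled where the unadjusted p was below 0.05. Most points lie near 0, with 45 of 62 under 0.2 in size; Cfd, C8a, Thbd, F11, Vwf and C8b lie farthest to the left, and the intervals of Cfd and C8a are the widest.

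Most members were abundant and even from library to library. Their mean levels ran from 0.511 FPKM for Vwf to 1396 FPKM for Fgg, with a median of 49.1 FPKM beside 3.25 FPKM over all genes tested. The median coefficient of variation between libraries was 14.4% in NIKflox and 12.4% in NIKhKO, against 18.2% and 17.4% over all genes tested. The genes compared were not matched for level. Some roles were above the values over all genes, such as the terminal pathway (19.8% and 34.8%) and the complement receptors (29.4% and 25.5%). Together the 62 genes made up 2.56, 2.61, 2.50, 2.96 and 2.86% of the summed FPKM in NIKflox 1 to 5 and 2.58, 2.66, 2.26, 2.22 and 2.15% in NIKhKO 1 to 5. NIKflox 4 and NIKflox 5 were highest and NIKhKO 3, 4 and 5 lowest, while NIKhKO 1 and 2 lay among the NIKflox livers. The 5 members nearest above the minimum were Vwf (0.511 FPKM), Plau (0.609), C3ar1 (0.645), F8 (0.740) and Thbd (0.923). Just below it were C5ar1 (0.372 FPKM), the receptor of the C5a fragment, and Procr (0.361), the endothelial protein C receptor.

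**Figure D2:**
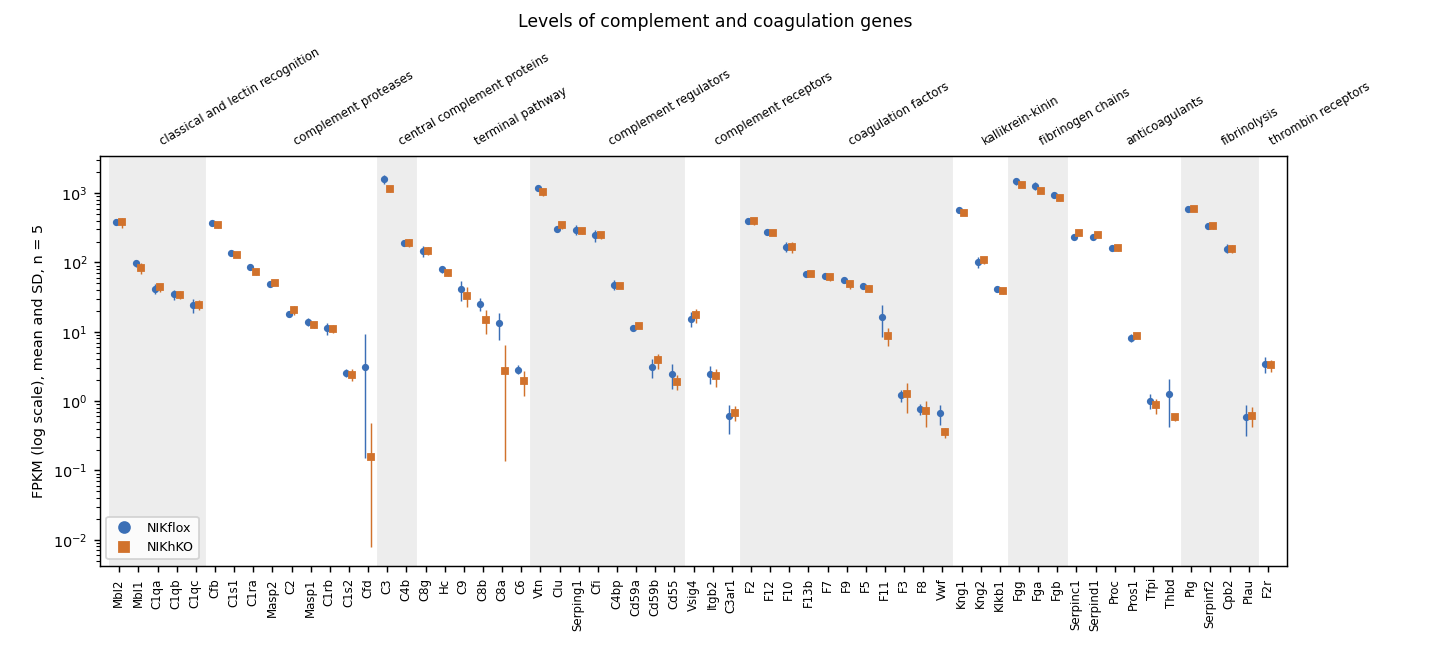
Mean level in FPKM (vertical axis, log scale) of 61 of the 62 genes in NIKflox (circles) and NIKhKO (squares), with bars for the SD over 5 libraries each, cut short downward where the SD is near or above the mean. The fibrinogen chains, C3 and Vtn stand highest, near or above 1000 FPKM, and the symbols of both genotypes nearly coincide for most genes.

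C3, on which all routes of complement activation converge, was the only member whose ranges did not overlap. It read 1445, 1392, 1393, 1950 and 1787 FPKM in NIKflox 1 to 5 and 1254, 1193, 1161, 1173 and 985 FPKM in NIKhKO 1 to 5. Every NIKhKO liver was below every NIKflox liver, with NIKflox 4 and 5 well above the other controls and NIKhKO 5 lowest. The means were 1593 ± 258 and 1153 ± 100 FPKM (SD, n = 5 each), or 72.4% of NIKflox. On the log2 scale C3 differed by −0.40 (SE 0.11, 95% interval −0.65 to −0.15, unadjusted p = 0.0046, adjusted p = 0.28 in edgeR's test). Ranges did not overlap for 2.20% of all genes tested, 1.59% lower and 0.605% higher, so 1 of 62 is near that share. The count of members with separate ranges was 1 without NIKflox 5 or NIKhKO 1, 4 without NIKflox 1, 2 without NIKflox 2, 3 without NIKflox 3, 6 without NIKflox 4, and 2 each without NIKhKO 2, 3, 4 or 5. It was 9 without NIKflox 2 and 4 together. The count over all genes tested also went up, from 280 to between 352 and 582 with 1 library left out (410 without NIKflox 4) and to 753 without NIKflox 2 and 4.

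C4b, which encodes the C4 that joins C2 in the classical C3 convertase, read 189 ± 16.1 and 192 ± 25.8 FPKM (SD, n = 5 each), with a log2 fold change of 0.09 (95% interval −0.15 to 0.32, adjusted p = 0.85; 0.01 without NIKflox 2 and 4). The ratio of C4b to C3 was 0.0897 to 0.140 in NIKflox and 0.131 to 0.201 in NIKhKO. The ratio of Cfb, the protease of the alternative convertase, to C3 was 0.211 to 0.253 in NIKflox and 0.259 to 0.352 in NIKhKO. These ratios were formed after the level of C3 was seen and share it.

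The upstream sequence of C3 is shown because C3 was the member with separate ranges, those of C8a and C8b because these neighbouring genes are described next, and that of Fgb for the fibrinogen chains. Each runs 5′ to 3′ over the 250 bases before the start of the gene in RefSeq (GRCm38.p6), with capitals for matches to the motifs searched. C3 lies at chr17:57228137-57228386 on the minus strand, C8a at chr4:104876399-104876648 on the minus strand, C8b at chr4:104766067-104766316 on the plus strand and Fgb at chr3:83049864-83050113 on the minus strand.
C3: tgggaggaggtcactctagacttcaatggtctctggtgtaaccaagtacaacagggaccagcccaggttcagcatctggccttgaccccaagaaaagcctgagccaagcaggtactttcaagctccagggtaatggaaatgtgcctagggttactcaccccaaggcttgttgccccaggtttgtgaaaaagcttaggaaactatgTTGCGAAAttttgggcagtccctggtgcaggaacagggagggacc
C8a: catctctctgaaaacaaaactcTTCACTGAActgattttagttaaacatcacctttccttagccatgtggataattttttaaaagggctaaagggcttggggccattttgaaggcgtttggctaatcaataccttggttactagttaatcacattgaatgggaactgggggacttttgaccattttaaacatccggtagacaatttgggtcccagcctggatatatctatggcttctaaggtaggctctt
C8b: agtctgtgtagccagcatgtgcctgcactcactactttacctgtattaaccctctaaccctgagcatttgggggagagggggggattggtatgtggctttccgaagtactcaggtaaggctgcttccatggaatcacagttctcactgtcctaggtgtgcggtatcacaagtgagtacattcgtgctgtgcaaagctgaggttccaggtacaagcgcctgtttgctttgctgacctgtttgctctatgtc
Fgb: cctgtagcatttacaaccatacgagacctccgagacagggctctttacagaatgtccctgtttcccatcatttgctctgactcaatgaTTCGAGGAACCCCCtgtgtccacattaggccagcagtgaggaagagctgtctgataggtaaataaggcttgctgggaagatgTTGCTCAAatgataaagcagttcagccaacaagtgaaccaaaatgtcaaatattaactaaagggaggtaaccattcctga
In C3 the capitals mark a match to the C/EBP motif TTGCNNAA, 45 to 38 bases before the start, and in C8a a match to the STAT motif TTCNNNGAA, 228 to 220 bases before it. In Fgb they mark a STAT match at 162 to 154 and a C/EBP match at 80 to 73 bases before the start, while the window of C8b held no match. In Fgb the STAT match overlaps a match to the NF-kB motif GGNNNTTCC at 157 to 149 bases, and the capitals run through both.

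Windows were found for 46 of the 62 genes and for 8817 of the 12731 genes tested, and both strands were searched. For 38 of the 46 the RefSeq start lay within 50 bases of the deposited gene start. It lay farthest for F8 and Cd59b, at 2275 and 1217 bases, so a match there may not be near the start of the counted gene. C/EBP factors and STAT3 are known activators of acute phase genes in hepatocytes, and HNF1 and HNF4 of hepatocyte genes at large. TTGCNNAA was present in 10 of the 46 windows (21.7%) and in 7.89% of all windows. TTCNNNGAA was present in 7 of 46 (15.2%) and in 5.85% of all. The NF-kB motif GGNNNTTCC was present in 6 of 46 (13.04%), in C1s1, C3ar1, Cd55, Cd59b, F3 and Fgb, and in 18.4% of all. HNF4, written CAAAGNNCA, was found in 4 of 46 (8.70%) against 5.14%, and TATAAA in 5 of 46 (10.9%) against 6.83%. The HNF1 motif GTTAATNAT was found in 4 of 46 (8.70%), in C4bp, F13b, Fga and Hc, against 0.669%. The window of 1 member, Fgb, held overlapping matches of different motifs. Members with no matched window included C1qa, C2, C4b, Cfb, Cfi, Clu, Itgb2, Kng1, Masp1, Plau, Plg, Proc, Serping1, Thbd and Vwf.

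The terminal pathway holds the genes whose products assemble the lytic pore. Of its 6 genes tested, 5 had negative log2 fold changes, where 6596 of all 12731 genes tested had, and none was called. The median was −0.36. Both the count and the median include C8a, whose fold change may not be one of expression, as described below. C8b, the beta chain of C8, read 30.9, 29.0, 23.7, 17.2 and 26.1 FPKM in NIKflox 1 to 5 and 11.3, 13.5, 10.3, 24.6 and 15.2 FPKM in NIKhKO 1 to 5. Only NIKhKO 4 lay among the controls, above NIKflox 3 and 4, and NIKflox 4 was the lowest control. For C8b the log2 fold change was −0.71 (SE 0.25, unadjusted p = 0.016, adjusted p = 0.37 in edgeR's test).

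C8a, the alpha chain, lies next to C8b on chromosome 4 and was named after its values were seen. It read 20.9, 16.3, 10.3, 6.01 and 12.7 FPKM in NIKflox 1 to 5. In NIKhKO 2 and 5 it read 7.21 and 6.17 FPKM, whereas NIKhKO 1 and 4 read 0.0451 and 0.0830 FPKM and NIKhKO 3 was listed at a count of 0. NIKhKO 1 and 4 had estimated counts of 12 and 18, against 1527 to 3926 in the 7 libraries other than NIKhKO 1, 3 and 4. Of 5855 genes with a count of at least 1000 in at least 5 libraries, 11 had 20 or less in at least 1 library. C8a was the only member among them and the only gene of the 5855 at 20 or less in exactly NIKhKO 1, 3 and 4. NIKhKO 4 had the highest C8b of its group and almost no C8a, so both chains did not go together in that liver. For C8a the log2 fold change was −2.27 with an SE of 1.25 (unadjusted p = 0.096, adjusted p = 0.60), and its 95% interval ran from −5.02 to 0.47. Whether the counts near 0 reflect absent RNA or a failed assignment of reads to C8a was not tested, so this fold change may not be one of expression.

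C8g, the gamma chain, which is encoded on chromosome 2, read 147 ± 27.6 and 148 ± 18.1 FPKM (SD, n = 5 each), with a log2 fold change of 0.07 (95% interval −0.20 to 0.34; −0.08 without NIKflox 2 and 4). The ratio of C8b to C8g ranged from 0.122 to 0.265 in NIKflox and from 0.0711 to 0.181 in NIKhKO. C6, which binds C5b first, read 3.06, 2.72, 2.45, 3.47 and 2.55 FPKM in NIKflox and 1.88, 1.82, 3.24, 1.42 and 1.41 FPKM in NIKhKO. All NIKhKO livers but NIKhKO 3 were below the lowest control. Its log2 fold change was −0.47 (SE 0.23, adjusted p = 0.55). With 1 library left out it ran from −0.76 (without NIKhKO 3) to −0.38 (without NIKhKO 4 or NIKhKO 5). It was −0.40 without NIKflox 2 and 4. C9, the pore-forming subunit, ranged from 22.4 to 59.4 FPKM and from 16.5 to 43.6 FPKM, and Hc, which encodes C5, from 63.6 to 87.6 FPKM and from 63.6 to 77.7 FPKM. Their log2 fold changes were −0.25 and −0.14.

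**Figure D3:**
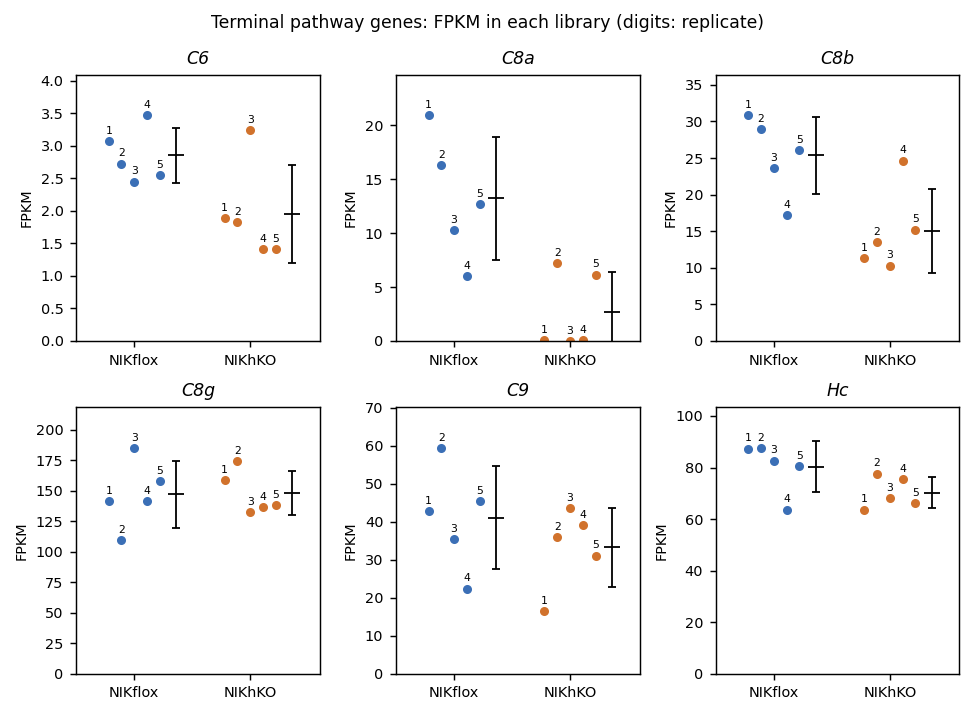
FPKM of the 6 terminal pathway genes (vertical axis of each panel, starting at 0) in each NIKflox and NIKhKO library, numbered by replicate, with the mean and SD of 5 libraries beside the points. C8a sits near 0 in NIKhKO 1, 3 and 4, C8b is low in all NIKhKO livers but NIKhKO 4, and C8g overlaps throughout.

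Of 5 recognition molecules of complement, 4 had positive and 1 a negative log2 fold change, and none was called. Mbl1 and Mbl2, mannose-binding lectins secreted by hepatocytes, read 97.6 ± 12.5 against 83.1 ± 15.3 FPKM and 389 ± 38.1 against 380 ± 65.8 FPKM (SD, n = 5 each, NIKflox first). Their log2 fold changes were −0.17 (adjusted p = 0.69) and 0.02 (adjusted p = 0.98), and the sign of the latter turned in limma on log2(FPKM + 1) (−0.05). C1qa, C1qb and C1qc, the chains of C1q, had log2 fold changes of 0.12, 0.05 and 0.10, none with an unadjusted p below 0.05. For C1qa the value was 0.26 without NIKflox 2 and 4, 0.03 without NIKflox 3 and 0.05 without NIKhKO 3. C1qa read 42.8, 47.6, 30.6, 48.9 and 39.8 FPKM in NIKflox and 48.1, 44.1, 50.6, 37.8 and 38.0 FPKM in NIKhKO. NIKflox 3 was the lowest library for each of the 3 chains, which kept a narrow ratio, 0.716 to 0.866 for C1qb to C1qa and 0.507 to 0.655 for C1qc to C1qa over all 10 livers. Markers of Kupffer cells, the resident macrophages, summed to 78.3 to 134 FPKM in NIKflox, lowest in NIKflox 3, and to 78.9 to 128 FPKM in NIKhKO; of 8 tested, 6 had positive and 2 negative log2 fold changes and none was called. Their part in the C1q levels was not tested.

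The 9 complement proteases had 4 positive and 5 negative log2 fold changes and no call. Cfb read 365 ± 31.3 and 352 ± 36.7 FPKM (SD, n = 5 each), with a log2 fold change of 0.01 (95% interval −0.18 to 0.19; −0.06 in limma on log2(FPKM + 1)). C2, the protease of the classical convertase, read 16.9, 16.9, 18.9, 17.0 and 21.1 FPKM in NIKflox and 16.7, 23.5, 21.1, 18.8 and 22.4 FPKM in NIKhKO. NIKhKO 2 to 5 lay above the median control and NIKhKO 1 was the lowest of all 10; the log2 fold change was 0.24 (SE 0.11, adjusted p = 0.53). C1s1 and C1ra, the main genes of the C1 proteases, had log2 fold changes of −0.01 and −0.17, and their close copies C1s2 and C1rb of −0.04 and 0.02. Reads can be split between such copies, which makes the levels of all 4 uncertain. Masp1 and Masp2, the proteases of the lectin pathway, had log2 fold changes of −0.12 and 0.10, with Masp2 between 44.8 and 52.7 FPKM in every liver.

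Cfd, which encodes factor D or adipsin and is known as a product of fat cells, had the largest fold change of the 62 and rested on 1 library. It read 14.4 FPKM in NIKflox 2, 0.956 in NIKflox 4, 0.724 in NIKhKO 5 and 0.0640 in NIKhKO 1, and was listed at a count of 0 in the other 6 livers. The log2 fold change was −4.17 (SE 1.97, unadjusted p = 0.058, adjusted p = 0.52), −0.48 without NIKflox 2, and 6.28 without NIKflox 2 and 4. The fat cell gene Adipoq, adiponectin, read 2.88 FPKM in NIKflox 2, 0.255 in NIKflox 4 and 0.238 in NIKhKO 5, and 0.142 in NIKhKO 2, and was at a count of 0 in the rest. Retn, resistin, was found in NIKflox 2 alone, at 1.31 FPKM. Of the other fat cell markers, Plin1 read 0.664 FPKM in NIKflox 2 and at most 0.113 elsewhere, and Cidec 3.21 in NIKflox 2 against 0.465 to 1.15 elsewhere. Car3, which hepatocytes also express, went the other way from Cfd, at 422 to 639.9 FPKM in NIKflox and 634.5 to 1562 FPKM in NIKhKO. The part of these fat cell markers in the Cfd difference was not tested.

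Among 9 complement regulators, 5 had positive and 4 negative log2 fold changes. Clu, clusterin, which keeps the terminal complex from inserting into membranes, read 275, 297, 291, 346 and 299 FPKM in NIKflox 1 to 5 and 388, 350, 348, 291 and 330 FPKM in NIKhKO 1 to 5. NIKflox 4 lay among the NIKhKO livers and NIKhKO 4 among the controls. Clu had a log2 fold change of 0.25 (SE 0.09, unadjusted p = 0.018, adjusted p = 0.38). Cd59a, the membrane inhibitor of pore assembly, read 11.3 ± 0.652 and 12.3 ± 0.670 FPKM (SD, n = 5 each), with a log2 fold change of 0.18 (SE 0.08, unadjusted p = 0.043, adjusted p = 0.48). It shares close sequence with Cd59b, at 3.09 ± 0.972 and 3.87 ± 0.977 FPKM (log2 fold change 0.38, adjusted p = 0.70), so their levels are uncertain.

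Vtn, vitronectin, the most abundant regulator, read 1201, 1138, 1093, 1192 and 1217 FPKM in NIKflox and 1050, 1185, 907, 989 and 986 FPKM in NIKhKO. All NIKhKO livers but NIKhKO 2 were below the lowest control, and the log2 fold change was −0.13 (SE 0.08, adjusted p = 0.67). Cfi, the protease that inactivates C3b, read 247 ± 47.0 and 247 ± 28.1 FPKM, and Serping1, the C1 inhibitor, 298 ± 50.4 and 288 ± 29.3 FPKM (SD, n = 5 each). Their log2 fold changes were 0.05 and 0.01. C4bp, the C4b-binding protein, stayed within 43.9 to 47.8 FPKM in NIKhKO and ranged from 34.1 FPKM in NIKflox 4 to 52.6 FPKM in NIKflox, with a log2 fold change of −0.01. Cd55, decay-accelerating factor, had a log2 fold change of −0.31 (adjusted p = 0.77), with 4.15 FPKM in NIKflox 2 and 1.48 to 2.58 FPKM in the others.

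The complement receptors, genes of leukocytes, were represented by 3 members. Vsig4, the receptor by which Kupffer cells bind C3b, read 15.5 ± 3.60 and 17.3 ± 3.95 FPKM (SD, n = 5 each), with a log2 fold change of 0.23 (adjusted p = 0.78). NIKhKO 3 was highest, at 24.0 FPKM, and NIKflox 3 lowest, at 11.3 FPKM. The log2 fold change of Vsig4 was 0.06 without NIKhKO 3, 0.14 without NIKflox 3 and 0.38 without NIKflox 2 and 4. C3ar1, the receptor of C3a, read 0.259 to 0.928 FPKM in NIKflox and 0.463 to 0.859 FPKM in NIKhKO (log2 fold change 0.25, SE 0.33), and its fold change ran from 0.06 without NIKflox 3 to 0.43 without NIKflox 4 and was 0.66 without NIKflox 2 and 4. Itgb2, the shared chain of complement receptors 3 and 4, had a log2 fold change of −0.05 (SE 0.25). Itgam and Itgax, the partners of that chain, were below the minimum, at mean levels of 0.152 and 0.175 FPKM.

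**Figure D4:**
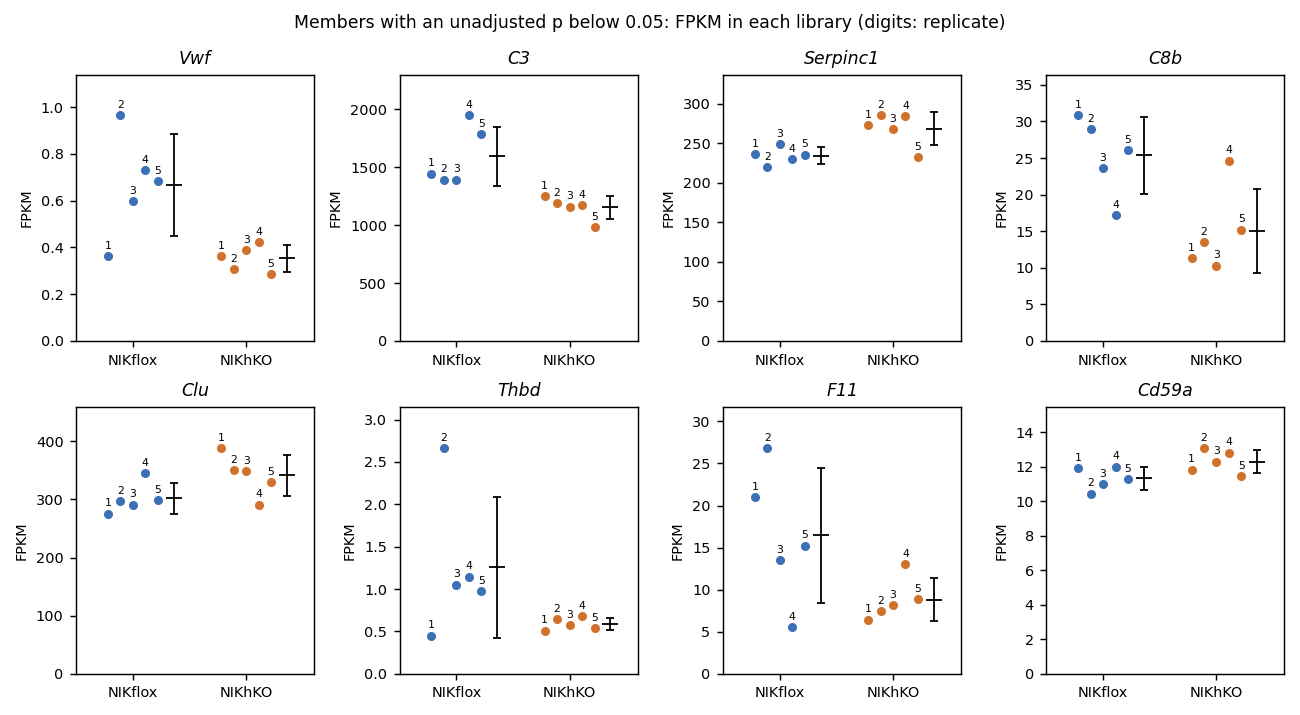
FPKM (vertical axes, starting at 0) of the 8 genes with an unadjusted p below 0.05 in each library, numbered by replicate, with the mean and SD of 5 libraries per genotype. Only the points of C3 are fully apart. Libraries cross in every other panel, such as NIKflox 1 in Vwf and Thbd, NIKhKO 5 in Serpinc1 and NIKhKO 4 in C8b, and several in Clu and Cd59a.

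Of 11 coagulation factors, 9 had log2 fold changes under 0.2 in size, and the other 2 were F11 and Vwf. F11, factor XI of the contact pathway, read 21.01, 26.8, 13.6, 5.56 and 15.2 FPKM in NIKflox 1 to 5 and 6.44, 7.48, 8.12, 13.1 and 8.84 FPKM in NIKhKO 1 to 5. The lowest value of all was a control, NIKflox 4, and the highest NIKhKO liver was NIKhKO 4, the libraries that also stood out from their groups for C8b. F11 had a log2 fold change of −0.86 (SE 0.36, unadjusted p = 0.037, adjusted p = 0.46). With 1 library left out it ran from −0.60 (without NIKflox 2) to −1.08 (without NIKflox 4), and it was −0.87 without both. The unadjusted p of F11 was 0.059 in limma on log2(FPKM + 1), 0.070 in limma on log2(FPKM + 0.1) and 0.145 in edgeR with the replicate block. Klkb1, prekallikrein, its neighbour on chromosome 8 and a gene of the same descent, read 42.1 ± 4.39 and 38.2 ± 3.19 FPKM (SD, n = 5 each), with a log2 fold change of −0.08 (adjusted p = 0.85; −0.19 without NIKflox 2 and 4).

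Vwf, von Willebrand factor, which tethers platelets and carries factor VIII, was the least abundant member. It read 0.362, 0.965, 0.597, 0.731 and 0.684 FPKM in NIKflox 1 to 5 and 0.364, 0.307, 0.389, 0.422 and 0.285 FPKM in NIKhKO 1 to 5. NIKflox 2 to 5 were above every NIKhKO liver and NIKflox 1 lay within the NIKhKO range. Vwf had a log2 fold change of −0.85 (SE 0.23, 95% interval −1.35 to −0.35, unadjusted p = 0.0031, adjusted p = 0.26 in edgeR's test); DESeq2 gave −0.84 and an adjusted p of 0.036. Without NIKflox 2 and 4 it was −0.58 (adjusted p = 0.55). Thbd, thrombomodulin, the endothelial cofactor that turns thrombin to the activation of protein C, read 0.451, 2.66, 1.05, 1.15 and 0.971 FPKM in NIKflox and 0.509, 0.646, 0.571, 0.681 and 0.541 FPKM in NIKhKO. NIKflox 2 was far above the rest and NIKflox 1 below all NIKhKO livers, and the log2 fold change was −1.03 (SE 0.37, unadjusted p = 0.019, adjusted p = 0.38). It was −0.54 without NIKflox 2 and −0.43 without NIKflox 2 and 4.

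F8, factor VIII, and Tfpi, tissue factor pathway inhibitor, which endothelium also makes, had log2 fold changes of −0.03 (SE 0.27) and −0.17 (SE 0.21). The 8 markers of sinusoidal endothelium summed to 49.1 to 58.8 FPKM in NIKflox, highest in NIKflox 2, and to 33.7 to 57.6 FPKM in NIKhKO, lowest in NIKhKO 5; 2 had positive and 6 negative log2 fold changes and none was called. NIKflox 2 had the highest Vwf and Thbd, and its heart muscle markers summed to 6.53 FPKM. In NIKflox 4 they summed to 27.8 FPKM, with Vwf at 0.731 and Thbd at 1.15 FPKM. Of the 8 endothelial markers, Pecam1 (3.94 FPKM, against at most 3.24 FPKM in the other livers) and Clec4g (25.0 FPKM) were highest in NIKflox 2. Oit3, Ptprb, Lyve1, Stab1, Stab2 and Kdr were each highest in another library. The part of the heart muscle and endothelial markers in the Vwf and Thbd differences was not tested. In whole liver, fewer cells of a type and less RNA per cell cannot be told apart.

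The clotting factors of the hepatocyte other than F11 had small fold changes. F2, prothrombin, the most abundant of them, read 365, 352, 414, 422 and 448 FPKM in NIKflox and 462, 432, 346, 364 and 365 FPKM in NIKhKO. Its log2 fold change was 0.04 (95% interval −0.17 to 0.25; −0.03 in limma on log2(FPKM + 1)). F7 and F10, adjacent on chromosome 8, had log2 fold changes of 0.00 and 0.05, with F10 between 141 and 207 FPKM. F10 and F2 were both highest in NIKhKO 1. F12, factor XII, read 275 ± 22.5 and 268 ± 14.2 FPKM, and F13b, the carrier subunit of factor XIII, 67.6 ± 4.08 and 67.9 ± 1.98 FPKM (SD, n = 5 each), with log2 fold changes of 0.03 and 0.07. F5, the cofactor of factor Xa, and F9, the factor missing in haemophilia B, had log2 fold changes of −0.05 and −0.13. F3, tissue factor, was low, at 0.522 to 2.11 FPKM, with both extremes in NIKhKO livers and a log2 fold change of 0.11 (SE 0.33). F2r, the thrombin receptor PAR1, read 3.45 ± 0.892 and 3.29 ± 0.672 FPKM (SD, n = 5 each), with a log2 fold change of 0.00 (95% interval −0.46 to 0.45).

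The 3 fibrinogen chains were among the 5 most abundant members. Fga read 1240, 1512, 1037, 1247 and 1303 FPKM in NIKflox and 1080, 1092, 1146, 1071 and 998 FPKM in NIKhKO. NIKflox 2 was the highest library for all 3 chains, and NIKflox 3, the lowest control, lay among the NIKhKO livers. Log2 fold changes were −0.17 for Fga (SE 0.11, adjusted p = 0.68), −0.10 for Fgb and −0.11 for Fgg, which was the most abundant at 1480 ± 172 and 1313 ± 97.2 FPKM (SD, n = 5 each). Without NIKflox 2 and 4, Fga was at −0.10 and Fgg at −0.03. The chains assemble in equal numbers in the protein, and their RNA kept a steady ratio, 0.759 to 0.894 for Fga to Fgg and 0.601 to 0.671 for Fgb to Fgg over the 10 livers. Together they made up 26.3 to 33.5% of the summed FPKM of the 62 genes. The 3 genes lie side by side on chromosome 3 of GRCm38, from 83007724 to 83049863. Fgg, on the plus strand, starts at the first position, and Fgb, on the minus strand, starts at the last.

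**Figure D5:**
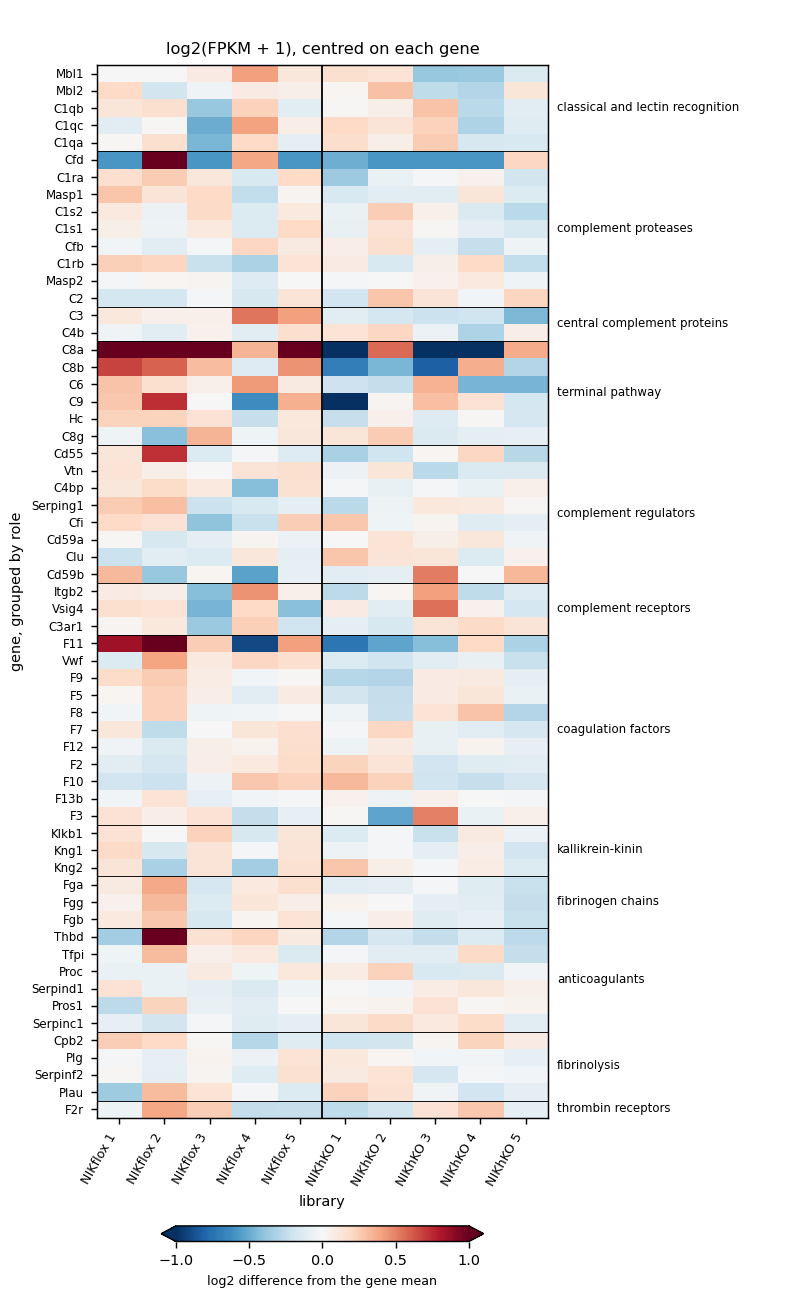
Log2(FPKM + 1) of 61 of the 62 genes (rows, grouped by role) in the 10 libraries (columns), centred on the mean of each gene, with red above and blue below it. The fibrinogen chains and the C1q chains each share their pattern across libraries, C3 is above its mean in the NIKflox livers and below it in the NIKhKO livers, and C8a, F11 and Cfd show the strongest colours.

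Anticoagulants held the member with the smallest p on the higher side. Serpinc1, antithrombin, the main inhibitor of thrombin and factor Xa, read 237, 220, 249, 230 and 236 FPKM in NIKflox 1 to 5 and 273, 286, 268, 284 and 233 FPKM in NIKhKO 1 to 5. NIKhKO 1 to 4 were above every control and NIKhKO 5 lay among them. Serpinc1 had a log2 fold change of 0.26 (SE 0.08, 95% interval 0.08 to 0.44, unadjusted p = 0.0098, adjusted p = 0.33). Serpind1, heparin cofactor II, and Pros1, protein S, had log2 fold changes of 0.14 and 0.16 (adjusted p = 0.70 and 0.68), and Proc, protein C, of 0.06, at 163 ± 10.1 and 163 ± 18.6 FPKM (SD, n = 5 each).

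All 4 fibrinolysis members had small positive log2 fold changes, from 0.04 to 0.10, and none was called. Plg, plasminogen, the precursor of the protease that dissolves fibrin, read 587 ± 35.6 and 585 ± 29.0 FPKM (SD, n = 5 each; log2 fold change 0.06, 95% interval −0.12 to 0.24). Serpinf2, the plasmin inhibitor, read 332 ± 25.3 and 333 ± 27.0 FPKM (SD, n = 5 each; log2 fold change 0.06). Without NIKflox 2 and 4 the log2 fold changes of Plg and Serpinf2 were 0.00 and −0.01. Cpb2, a carboxypeptidase that slows fibrinolysis, and Plau, urokinase, had log2 fold changes of 0.04 and 0.10, with SEs of 0.15 and 0.35. The other plasminogen activator, Plat, was below the minimum, at 0.107 FPKM. Of the kinin genes, Kng1 and Kng2, the kininogen genes, from whose product bradykinin is cut and which share close sequence, read 564 ± 54.3 and 520 ± 34.2 FPKM and 101 ± 17.6 and 108 ± 11.7 FPKM (SD, n = 5 each), with log2 fold changes of −0.05 and 0.15; without NIKflox 2 and 4 they were −0.16 and −0.03.

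Genes that act with the cascades were taken from lists of their own. Of 6 genes of the vitamin K cycle and of clotting factor secretion, 2 had positive and 4 negative log2 fold changes and none was called. Lman1, the cargo receptor for factors V and VIII, read 21.5 ± 2.93 and 17.9 ± 1.28 FPKM (log2 fold change −0.20, adjusted p = 0.55; −0.10 without NIKflox 2 and 4), and Vkorc1l1 read 2.53 ± 1.61 and 4.26 ± 0.898 FPKM (SD, n = 5 each; log2 fold change 0.81, adjusted p = 0.62). Ggcx, which carboxylates the vitamin K-dependent factors, had a log2 fold change of −0.08. Among 14 further plasma proteins 10 log2 fold changes were negative and 4 positive (median −0.07), and none was called. Apcs, serum amyloid P, read 84.1 ± 30.8 and 59.2 ± 9.10 FPKM and Apoh 1291 ± 75.3 and 1125 ± 111 FPKM (SD, n = 5 each), with adjusted p-values of 0.58 and 0.67. Their log2 fold changes were −0.46 and −0.14, and that of Apcs was −0.21 without NIKflox 1, its highest library. Of 8 hepatocyte transcription factors none was called. Nr1h4, which encodes the bile acid receptor FXR, a known activator of human fibrinogen and kininogen genes, read 31.8 ± 4.11 and 36.8 ± 2.31 FPKM (log2 fold change 0.28, unadjusted p = 0.0063, adjusted p = 0.29). Onecut1 read 3.35 ± 0.789 and 1.64 ± 0.837 FPKM (SD, n = 5 each; log2 fold change −0.98, adjusted p = 0.37), Hnf4a had a log2 fold change of −0.08 and Cebpa of 0.33 (adjusted p = 0.65).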

How the data were processed

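RNA from mouse liver was sequenced in 10 libraries. The deposited table gives FPKM, as its file headers name the authors' values, and whole-number estimated counts (expected counts), which the authors left unnormalized. Per the submitters' processing notes the tools were cutadapt 1.9, HISAT2 2.0.4, StringTie 1.3.4d and edgeR, with no role given, and the build named is hg38, although the gene identifiers are mouse. All 62 members were found in GENCODE M21 (GRCm38), 56 with the same start and end. Low counts pile up at 4 (907 genes per library on average, against 330.5 at 3), so a count need not be 1 read pair, and totals are given as counts only.

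Genes averaging 0.5 FPKM or more, and Map3k14, were tested on the counts with edgeR 4.0.16 in R 4.3.3 (quasi-likelihood, TMM, two-sided, Benjamini-Hochberg over 12731 genes). Standard errors are the fold change over the square root of F. The 95% intervals use the moderated degrees of freedom. Alternatives were DESeq2 1.42.0, limma 3.58.1 on log2(FPKM + 1) and log2(FPKM + 0.1), RLE factors, other filters, a replicate block and libraries left out. Members and gene lists were chosen with earlier results of these data known. Named were members with separate ranges, the 2 with the smallest p and the most abundant in each role, and the 2 with the smallest p in each further list; members named beside these were chosen after their values were seen. Members sharing sequence with a copy (C1r, C1s, Cd59, kininogens), and 9 that overlap another tested gene, are uncertain, since the sources used here do not say whether counting used strand. The NF-kB and HNF1 motifs were shortened to 9 bases after a first search with longer forms. 1 member is counted in the totals but not reported here by name or drawn.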

Additional observations from a re-analysis of the deposited data

Results flagged for a closer look

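In 4 of 58 groups of 5 libraries (29 named members in 2 genotypes), 1 library stood far from the other 4; chance flags about 5% of groups. Mbl1 read 119.1 FPKM in NIKflox 4, where the next control read 96.7. Cfd read 14.37 FPKM in NIKflox 2, with the next control at 0.956, and 0.7238 FPKM in NIKhKO 5, with the next NIKhKO liver at 0.0640. C6 read 3.244 FPKM in NIKhKO 3, with the next at 1.88.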

How the results depend on the processing

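The number of members called was 0 in every alternative but DESeq2, which called 1. Members at an unadjusted p below 0.05 numbered 6 to 10 over all 18 alternatives, and the median log2 fold change of members lay between −0.05 and 0.03. In alternatives on the same 12731 genes, 979 to 1385 of all genes had such a p, against 1273 in the main fit. The other filters tested other sets of genes, with 2463 without a filter and 1105 at a mean FPKM of at least 1. Members with separate ranges numbered 1 to 6 when 1 library was left out (352 to 582 of all genes tested, against 280 with all libraries) and 9 without NIKflox 2 and 4 (753 of all). Map3k14 stayed negative and uncalled, from −0.66 to −0.21. Of 627 values of single named genes, 591 kept their direction and call, 1 passed (Vwf in DESeq2), and 35, all of 9 genes, changed sign. With log2(FPKM + 1) the values were Mbl2 −0.0461, F2 −0.0253, Cfb −0.0562 and Plg −0.0049; with log2(FPKM + 0.1) they were Mbl2 −0.0462, F2 −0.0253, Cfb −0.0564 and Plg −0.0049. F2r was 0.0044 in DESeq2, 0.0045 with RLE factors, 0.0079 without a filter, 0.0017 at a mean FPKM of at least 1 and 0.0083 with the replicate block. Without NIKflox 2 and 4 the values were Mbl2 −0.0383, F2 −0.0058, Cfd 6.282, Serpinf2 −0.013, Plg −0.0043, Kng2 −0.0312, C8g −0.0772 and F2r 0.0471. With 1 library left out, Mbl2 ran from −0.0325 to 0.0884, Cfb from −0.0167 to 0.0537, C8g from −0.015 to 0.1643, F2r from −0.1083 to 0.1368 and F2 from −0.0167 to 0.0962. The limma settings used FPKM without TMM factors. Their median over all genes tested was −0.0521 with log2(FPKM + 1) and −0.0695 with log2(FPKM + 0.1), against −0.0098 in the main fit. The cause of the sign changes was not tested.

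The labels do not say whether libraries with the same replicate number are paired between the genotypes. Their deviations from the group means over all genes tested had correlations from −0.253 to 0.051. Such values cannot exclude a pairing that acts weakly or on few genes. With the replicate block 0 members were called and 6 had an unadjusted p below 0.05, where 1000 of all genes tested had. The median 95% interval of a member reached 0.28 log2 units to either side.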
